A study of Homo sapiens with 6 samples.

Results

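Strong peaks that the PAI-1 antibody gave in UM-UC-3 cells and not in RT112 cells are described here: 5554 regions out of the 380031 peaks in 4 lists. Both are established human bladder cancer cell lines, and the labels name no treatment. For each line, chromatin was immunoprecipitated with an antibody against PAI-1 and sequenced (ChIP-seq) in 2 biological replicates, and 1 input library without antibody was made. The study asked where in the genome PAI-1 is found. Each group is a single cell line and each peak list comes from a single antibody, so a difference between the lists cannot be told apart from other differences between the lines, copy number included.

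The regions were chosen by their measured values. A region is a peak of UM-UC-3 replicate 1 with a score of at least 10 that overlapped, by at least 1 bp, a peak of replicate 2 with a score of at least 10, and that overlapped no peak of either RT112 replicate. The score is the value the peak caller MACS2 wrote for each peak, read here as minus log10 of p or q (which of these is not stated), and a higher score marks a stronger peak. Of the 109287 peaks of UM-UC-3 replicate 1, 10007 had such a score, 9469 of these overlapped a peak of replicate 2 and 6365 overlapped one with a score of at least 10. An RT112 peak overlapped 811 of these 6365, which left 5554, or 5.08% of the peaks of replicate 1. Presence in UM-UC-3, absence from RT112 and a high score are therefore no findings. No test was run on them, and 2 libraries against 2 cannot give a two-sided exact permutation p below 0.333. Shares are given beside those of 4 other sets: all peaks of replicate 1; the 811 shared strong peaks; 71114 weaker peaks, found in both UM-UC-3 replicates and in neither RT112 list but below 10 in at least 1 replicate; and 3030 strong peaks found only in RT112 by the mirrored rule.

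PAI-1 is a serpin. It is secreted and blocks tissue-type and urokinase-type plasminogen activator, the proteases that turn plasminogen into plasmin, and it is known in the extracellular matrix and in plasma. A ChIP peak marks DNA that was recovered with the antibody more often than expected by the peak caller. Promoters of many genes are rich in GC and CpG, whereas introns and the DNA between genes are mostly not.

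Selected sequences show the range of what these peaks hold. They come from the GRCh37 reference (hg19), plus strand, and are at most 300 bases around the centre of the peak. The first is the region that ranked best by the mean of its ranks in the replicates, at chr12:114112306-114112605 in an intron of LINC01234, a long non-coding RNA gene. Its scores were 91.3 in replicate 1 and 74.4 in replicate 2, and 89% of its printed bases were C or T. Capitals mark the longest run without a purine, of 23 bases.
chr12:114112306-114112605: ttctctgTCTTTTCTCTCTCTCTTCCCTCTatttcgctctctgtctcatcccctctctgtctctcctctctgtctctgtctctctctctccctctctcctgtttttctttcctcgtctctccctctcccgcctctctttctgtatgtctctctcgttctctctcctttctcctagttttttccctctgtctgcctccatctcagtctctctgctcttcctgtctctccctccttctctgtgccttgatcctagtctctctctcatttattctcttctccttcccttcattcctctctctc

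The other pair shows the extremes of GC content among the regions considered for printing, measured in the central 200 bases. The highest value, 65%, was shared with a region whose nearest coding start was that of CASZ1. The printed region with this value lay at chr14:106172853-106173105 in IGHA1, an immunoglobulin heavy chain constant gene. It was within 3 kb of a start site, with scores of 20.8 and 23.4. The region with the lowest value, 21.5%, lay at chr1:106073656-106073955, 1525 kb from PRMT6, the nearest protein-coding gene, with scores of 18.2 and 14.6. Capitals mark CpG, of which the printed stretch of the first has 10 and that of the second has 0.
chr14:106172853-106173105: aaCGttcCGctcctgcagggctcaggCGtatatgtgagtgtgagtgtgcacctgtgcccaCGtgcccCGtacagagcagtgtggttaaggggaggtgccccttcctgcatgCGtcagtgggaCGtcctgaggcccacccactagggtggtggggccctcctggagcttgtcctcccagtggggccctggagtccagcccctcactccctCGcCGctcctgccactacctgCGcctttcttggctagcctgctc
chr1:106073656-106073955: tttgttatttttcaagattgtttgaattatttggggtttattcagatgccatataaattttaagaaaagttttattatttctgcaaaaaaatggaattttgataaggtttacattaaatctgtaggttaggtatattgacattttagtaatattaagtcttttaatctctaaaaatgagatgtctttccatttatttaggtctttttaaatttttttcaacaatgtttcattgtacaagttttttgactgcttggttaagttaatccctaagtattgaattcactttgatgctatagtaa

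The regions were narrow in both replicates. Their median width was 310.5 bp in replicate 1, with a range of 215 to 1663 bp, and 310 bp in replicate 2, with a range of 211 to 1506 bp. Both ends lay within 1 bp of each other in the replicates for 3589 regions (64.6%). Together the regions covered 1959 kb of the genome in replicate 1 and 1952 kb in replicate 2. They matched 5553 distinct peaks of replicate 2, so that 1 of those peaks was matched by a pair of regions.

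The scores of most regions were close to the threshold that chose them. The median score was 14.6 in both replicates, and the highest was 91.3 in replicate 1 and 81.9 in replicate 2. A score of at least 50 was reached by 29 regions in replicate 1 and by 35 in replicate 2. The scores of a region were within 1.5-fold of each other for 4974 regions (89.6%), and 2387 (43.0%) scored higher in replicate 2. Over the 5554 regions, Pearson's r of the log10 scores was 0.711 and Spearman's rho of the scores was 0.578; the points share their genome and a lower limit of 10 on both axes. Just inside the threshold lay a region on chromosome 2 with scores of 10.07 and 10.03. Just outside lay a peak on chromosome 12 with 10.02 and 9.98, and one on chromosome 19 with 11.4 and 9.99. The scores came in steps: 5 values, from 11.3 to 18.2, held 57.1% of the regions in replicate 1, and 220 regions had a lower score of 10 to 11 whereas 2481 UM-UC-3-only peaks had one of 9 to 10.

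**Figure D1:**
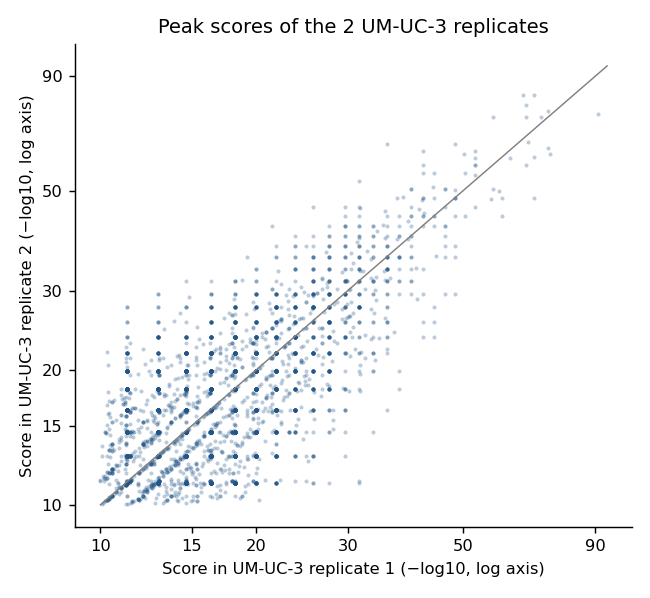
Score of each of the 5554 regions in UM-UC-3 replicate 1 (horizontal axis) and replicate 2 (vertical axis), as minus log10 of p or q on log axes, with a grey line of equal scores. Points line up on steps of the score, most lie below 20 on both axes, and the regions above 50 stay near the line.

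The share of strong peaks that overlapped an RT112 peak is given by score as a description, because score and overlap chose the regions. Width moved with score as well. The median width of the regions was 305 bp at lower scores of 10 to 15 and 353.5 bp at 30 or more. Its part in the overlap was not tested. Among the strong peaks of both UM-UC-3 replicates, an RT112 peak overlapped 11.6% of those whose lower score was 10 to 15, 13.6% at 15 to 20, 16.2% at 20 to 30, 17.4% at 30 to 50 and 29.0% (9 of 31) at 50 or more. Of the 75449 weaker peaks of both replicates, 5.75% overlapped one. The 5554 regions left after this exclusion thus hold 22 of the 31 strongest. The RT112 peak nearest to a region was at a median of 7.18 kb, against 7.58 kb for the weaker peaks. It was within 1 kb for 509 regions (9.16%), within 10 kb for 3396 (61.1%) and within 100 kb for 5540 (99.7%). Of the weaker peaks 59.2% had an RT112 peak within 10 kb, so this nearness was not particular to the regions.

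The 10 regions that ranked best lay away from the start sites of protein-coding genes. After the LINC01234 region, the next was chr16:71047907-71048338, with scores of 73.1 and 75.2, in an intron of HYDIN, which is needed for the movement of cilia. HYDIN has a near-identical copy on another chromosome, so reads of this region may belong to either. The third, chr17:51979592-51980376, was the widest of the 10 at 785 and 770 bp, with scores of 68.6 and 81.9. Its nearest protein-coding gene was KIF2B, a kinesin of the mitotic spindle, at 77.0 kb. The fourth scored 70.9 and 73.0 in an intron of H2AZ1-DT, a long non-coding RNA gene.

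Keratin genes were near another region of this group. At chr12:53197090-53197545 the scores were 65.4 and 81.9, and the region lay 2.79 kb from KRT4 and 7.19 kb from the start of KRT3, both type II keratins of stratified epithelia. An RT112 peak was 0.376 kb away. The nearest RT112 peaks of the other 9 regions were at 2.82 to 23.9 kb.

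The other 5 lay in introns or in distal intergenic DNA. The region chr11:95800041-95800447, with scores of 73.1 and 62.2, lay in an intron of MAML2, a coactivator of Notch signalling. The region chr2:16125878-16126472 scored 73.6 and 60.4 and lay in distal intergenic DNA 38.7 kb from MYCN, a MYC family transcription factor. The region chr13:33701999-33702303 scored 66.7 and 64.3 in an intron of STARD13, which encodes a GTPase-activating protein. The 2 that remain were chr21:28946078-28946593 (66.3 and 77.6), 607 kb from ADAMTS5, and chr1:49339447-49339926 (66.3 and 73.0), in an intron of AGBL4. None of the 10 was a promoter region, 6 lay in an intron of a coding or a non-coding gene other than LINC01234, and the distances to the nearest start of a protein-coding gene ran from 7.19 to 607 kb.

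By location, the shares of the regions were close to those of the other peaks. A region within 3 kb of a start site of any transcript was called a promoter region. The rest were assigned by what they overlapped, with 5′ UTRs before 3′ UTRs, then the remaining exons, introns, the 3 kb after a gene (downstream) and distal intergenic DNA. Introns held 2494 regions (44.9%), distal intergenic DNA 1909 (34.4%) and promoters 884 (15.9%). With protein-coding genes alone, distal intergenic DNA held 54.2% and promoters 7.99%, and with promoters of 1 kb the promoter share was 6.55%. A further 103 (1.85%) lay in other exons, 92 (1.66%) downstream of a gene, 66 (1.19%) in 3′ UTRs and 6 in 5′ UTRs. Among all peaks of replicate 1 the shares were 45.4% for introns, 34.3% for distal intergenic DNA and 15.8% for promoters. The shared strong peaks had 44.02, 34.6 and 16.2%, and the strong RT112-only peaks had 44.7, 33.9 and 15.7%. Of the strongest, 14.4% of the 174 regions whose lower score was at least 30 were promoter regions.

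Starts of protein-coding genes, taken as the outermost annotated end of each gene, were far from most regions. Starts of other transcripts within a gene were not counted here. The median distance was 85.5 kb, against 93.1 kb for all peaks of replicate 1 and 84.0 kb for the strong RT112-only peaks. More than 100 kb lay between 2577 regions (46.4%) and the nearest such start. Within 1 kb of such a start lay 43 regions (0.774%), against 0.614% of all peaks and 0.600% of the weaker peaks. The share was higher in the shared strong peaks (1.36%) and the strong RT112-only peaks (0.858%). Within 3 kb of the start of any transcript of a protein-coding gene lay 7.99% of the regions. The 10 of these 43 with the highest lower score are named in the next paragraph.

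The strongest lay 0.440 kb from the start of BSX, a homeobox factor of the hypothalamus, with scores of 52.9 and 54.4. It was followed by regions at BLK, a B-cell kinase of the Src family (31.6 and 27.5), and at IGFBPL1 (26.1 and 29.7). A region at OR5AK3P, an olfactory receptor locus, lay 0.006 kb from the start (25.7 and 31.5), and another lay 0.141 kb from CD300LD (24.3 and 30.5). The other 5 were at ATP1A4, the sodium pump subunit of sperm, at ANKRD1, a target gene of the Hippo pathway, at TRIM31, at MAPRE3, a protein of microtubule ends, and at ZNF26. Their scores ran from 18.4 to 37.6. The region at ANKRD1 scored 23.8 and 33.5 and had an RT112 peak 0.290 kb away. Which of these genes UM-UC-3 cells express was not measured here.

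Genes that held a region were long. Of the 20163 protein-coding genes, 2034 (10.1%) had a region in the gene or within 3 kb of it, and 2543 of the 5554 regions (45.8%) lay so, as did 45.9% of all peaks of replicate 1. Within their bounds 1909 genes held a region, 1488 of them just 1, and 121 genes held 3 or more. The median length was 135 kb for genes with a region and 27.2 kb for all. With the genes ranked by length and split into 5 equal groups, the share of genes with a region was 1.07, 2.06, 4.64, 10.3 and 32.4% from the shortest to the longest. Per Mb of gene the spread was smaller, at 1.47, 1.15, 1.49, 1.67 and 1.98 regions, against 1.94 per Mb of the whole reference.

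The 15 genes with the most regions, of which the last 2 are the shortest of 8 genes with 5 regions, were 278 to 2474 kb long. DAB1, an adaptor of reelin signalling in neurons, held 10 regions in 1552 kb. It had 134 and 129 peaks of any score in UM-UC-3 and 89 and 51 in RT112. CTNND2, a catenin of neuronal junctions, held 9 regions in 933 kb, and RBFOX1, a splicing regulator of neurons, held 9 in 2474 kb. RBFOX1 had more RT112 peaks in replicate 1 (162) than UM-UC-3 peaks in either replicate (144 and 154). The channel gene ASIC2 and the synaptic scaffold gene DLG2 had 8 each, and RUNX1, a transcription factor of blood development, and MAGI2, another synaptic scaffold, had 7 each. AK5, CA10, ZFPM2, KCNIP4, EYS and PTPRD had 6 each, and ENSG00000284686 and VAV3, a guanine nucleotide exchange factor, had 5 each.

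AK5, an adenylate kinase of the brain, stood out by density. Its 6 regions fell in 278 kb, or 2.16 per 100 kb, with scores of 11.3 to 39.8 in replicate 1 and 10.7 to 37.6 in replicate 2, and 5 of them were within a run of 97.2 kb. Among genes of at least 100 kb, MEIKIN, a kinetochore factor of meiosis, was the densest with 4 regions in 139 kb (2.88 per 100 kb). The overlapping gene ENSG00000281938 shared its count of 4. PLPP3, a lipid phosphate phosphatase, had 3 regions (1.99 per 100 kb) and overlaps ENSG00000284686. PREX1, an exchange factor for Rac, had 4 (1.96 per 100 kb), where the lists held 7 and 9 UM-UC-3 peaks and 13 and 8 RT112 peaks in all. SNCAIP, CEP63, ERICH3, RPGRIP1L and BCL2L14 had 1.86 to 1.96 per 100 kb from 2 or 3 regions each.

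Lists of the plasminogen system, TGF-beta signalling, urothelial differentiation and bladder cancer had shares of 0, 10, 12.5 and 4.17%, against 10.1% of all protein-coding genes. The last 3 lists had median gene lengths of 75.6, 26.2 and 44.1 kb, against 27.2 kb for all. Per Mb of gene they held 0.602, 2.88 and 0.860 regions, against 1.85 over all, from only 1, 3 and 2 regions within the genes. None of the 10 genes of the plasminogen system had a region in the gene or within 3 kb; their median length was 32.6 kb. Of 20 genes of TGF-beta signalling and epithelial-mesenchymal transition 2 had one: ZEB1, a repressor of E-cadherin (11.3 and 11.2), and SMAD4, the common mediator of the pathway, 1.79 kb from the start (10.95 and 10.9). Of 16 genes of urothelial differentiation 2 had one. These were PPARG, a nuclear receptor of the luminal programme (11.3 and 14.6), and TP63, a factor of basal cells, with 2 regions of which the stronger scored 23.8 and 27.5. Of 24 genes listed as drivers of bladder cancer only RB1, the retinoblastoma tumour suppressor, had any. It held 2 regions, of which the stronger scored 27.6 and 29.5.

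The highest shares were those of a pair of lists with long genes. Of 20 genes at common fragile sites, long genes that break under replication stress, 16 (80%) had a region; their median length was 1553 kb. Per Mb of gene they held 1.86 regions, against 1.85 over all protein-coding genes. FHIT had 1 region (11.3 and 12.9) and WWOX had 4, the strongest with 35.7 and 39.7. The strongest in AUTS2 scored 46.2 and 46.1. Of 21 genes of glutamate receptors and synaptic adhesion 15 (71.4%) had a region, at 2.17 per Mb; NRXN3 had 5 and GRM7 had 4.

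The genes that the study itself followed were counted too. Of 12 genes with ChIP-PCR primers in the study, DOCK2, an exchange factor of blood cells, had 1 region (11.3 and 16.3), or 8.33% of the list with a region against 10.1% of all protein-coding genes. Of 434 genes found from the study's list for UM-UC-3, 91 (21.0%) had a region, and of 469 from its list for RT112, 92 (19.6%) had one, both against the same 10.1%. Their median lengths were 41.9 and 41.1 kb, where that of all coding genes was 27.2 kb, and they held 2.32 and 2.23 regions per Mb of gene, against 1.85. Both lists were chosen by the study on peaks of these samples and on upregulation after PAI-1 knockdown. They are therefore not independent of the peaks.

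**Figure D2:**
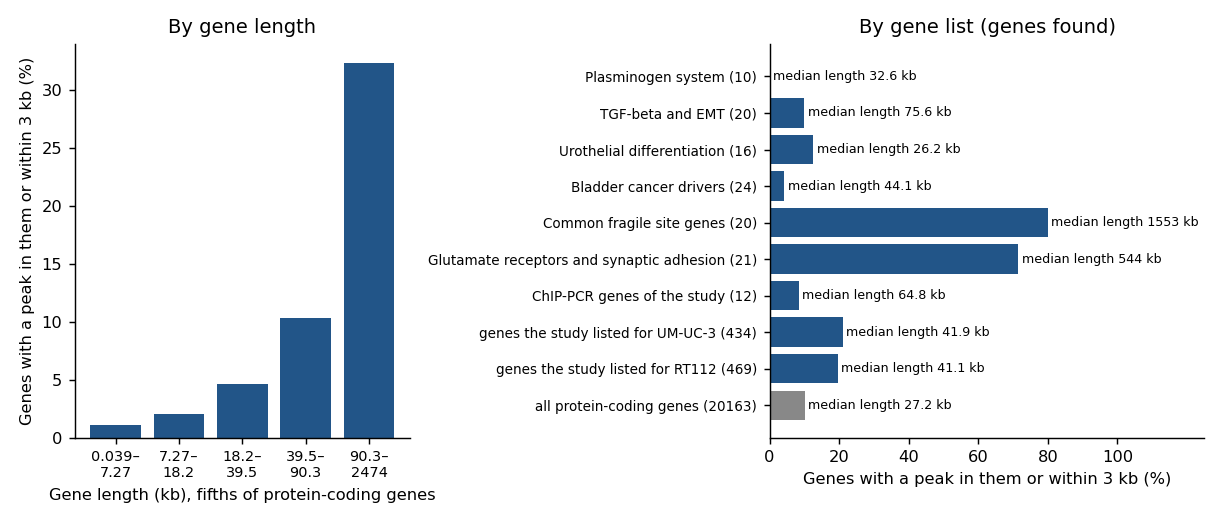
Left, percent of protein-coding genes with a strong UM-UC-3-only peak in the gene or within 3 kb (vertical axis), for 5 equal groups of genes by length in kb. Right, the same percent for each gene list with the number of genes found and their median length, and in grey for all protein-coding genes: the bars rise from 1.07 to 32.4% with length, and the 2 lists of very long genes reach 80 and 71.4%.

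Along the chromosomes, the density of regions varied. Over the reference there were 1.94 regions per Mb. The highest densities were on chromosomes 12 (2.59 per Mb), 1 (2.57) and 5 (2.56), and the lowest, chromosome Y with 0 regions aside, were on chromosomes 4 (1.35) and 14 (1.48). The number of regions per 100 peaks of replicate 1 varied less, from 4.49 on chromosome 7 to 5.72 on chromosome 21, with 5.08 over all. Chromosome 20 had 1.75 regions per Mb but 3.11 strong RT112-only peaks per Mb, the highest of any chromosome in RT112. Chromosome 8 had 2.02 and 1.71. Copy number was not measured, and its part in these densities was not tested.

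Among chromosome arms, the short arm of chromosome 5 had the most. It held 191 regions in 46.3 Mb, or 4.12 per Mb, where the long arm of the same chromosome had 2.01. All peaks of UM-UC-3 replicate 1 rose with it, to 75.3 per Mb against 41.6 on the long arm, so that there were 5.47 regions per 100 peaks on the short and 4.83 on the long arm. RT112 replicate 1 had 47.4 and 32.9 peaks per Mb on these arms. The next arms were 12p with 3.06 and 1p with 2.70 regions per Mb, and the lowest of the 41 arms with at least 10 Mb of sequence was 4q with 1.28.

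**Figure D3:**
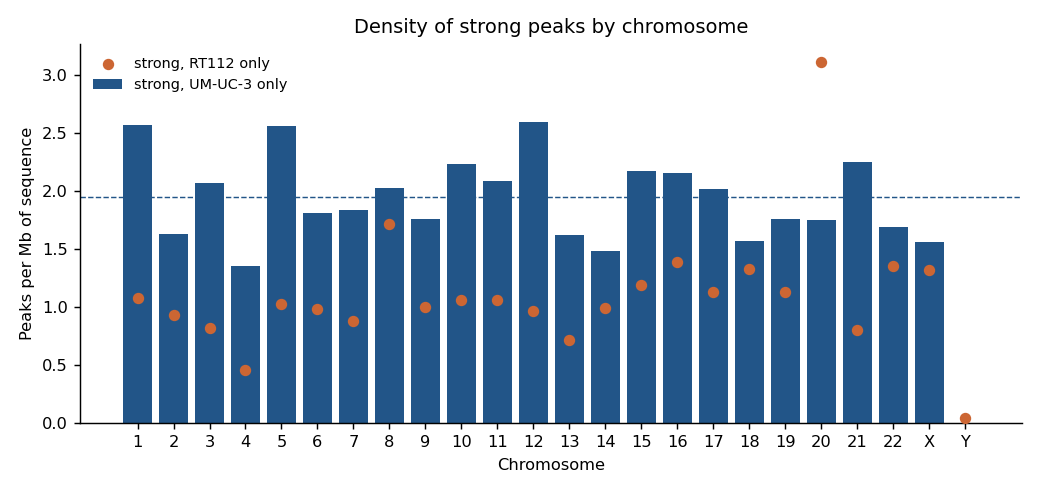
Strong peaks per Mb of sequence (vertical axis) on each chromosome (horizontal axis), as bars for UM-UC-3-only and points for RT112-only peaks, with a dashed line at 1.94 per Mb, the value of the UM-UC-3-only peaks over the reference. Bars are highest on chromosomes 1, 5 and 12, and the RT112-only point exceeds the bar on chromosome 20, apart from chromosome Y.

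In bins of 1 Mb the regions were thinly spread. Of 2869 bins with sequence for most of their bases, 551 had no region, 770 had 1 and 679 had 2. In 202 bins there were 5 or more, 1173 regions (21.1%) in all. The mean was 1.93 per bin and the variance was 1.36 times the mean; that ratio was 1.48 for strong RT112-only peaks and 4.98 for all peaks of replicate 1. The 5% of bins with the most regions held 15.9% of the regions. This share was 34.5% for the 811 shared strong peaks, 22.0% for the 3030 strong RT112-only peaks, 9.47% for the 71114 weaker peaks and 9.39% for all peaks of replicate 1, so that it was lower in sets with more peaks. The ratio of variance to mean also depends on the number of peaks. Neighbours were at a median of 157 kb, 263 regions (4.74%) had the next one within 10 kb and 2011 (36.2%) within 100 kb.

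**Figure D4:**
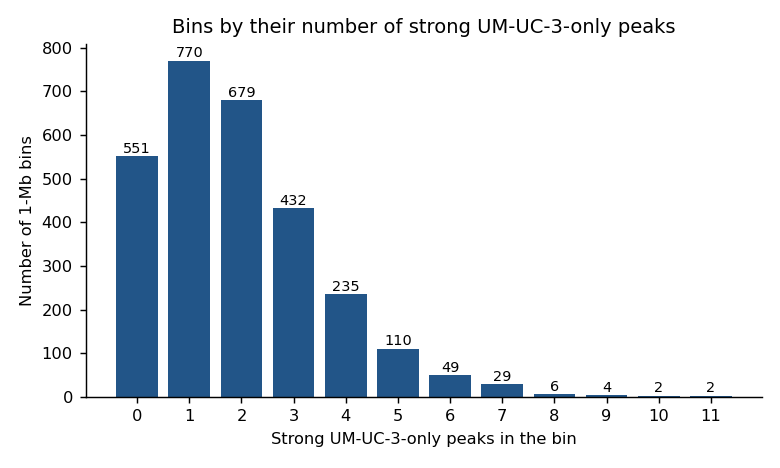
Number of 1-Mb bins (vertical axis) by the strong UM-UC-3-only peaks they held (horizontal axis). The counts fall from 770 bins with 1 region to 2 bins with 11, and 551 bins held none.

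The count per bin moved with the peaks of the same line. Over the 2869 bins, Pearson's r was 0.504 with all peaks of UM-UC-3 replicate 1, 0.300 with those of RT112 replicate 1, 0.111 with strong RT112-only peaks and 0.0113 with GC content; Spearman's rho was 0.470, 0.293, 0.114 and 0.0629. Neighbouring bins share mappability and copy number, and the regions are themselves peaks of replicate 1. With the bins split into 4 equal groups by their peaks of replicate 1, the mean number of regions rose from 1.02 to 3.02, and the regions per 100 peaks from 4.68 to 5.44.

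The 10 fullest bins, 2 of them drawn from 6 bins with 8 regions, lay on 6 chromosomes, and 4 of them on chromosome 5. The bin at 11 to 12 Mb of chromosome 5 held 11 regions, 9 of them in CTNND2, its only protein-coding gene. It had 102 and 104 UM-UC-3 peaks of any score, and 102 was the highest count of any bin in replicate 1; it had 62 and 33 RT112 peaks. The bin at 77 to 78 Mb of chromosome 1 also held 11, with 8 in AK5, ST6GALNAC3 and ST6GALNAC5, the latter 2 being sialyltransferases. Here UM-UC-3 had 73 and 72 peaks and RT112 had 36 and 28.

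The bin at 136 to 137 Mb of chromosome 8 held 10 regions, 2 of them in KHDRBS3, an RNA-binding protein. Its RT112 counts of 104 and 54 included the highest of any bin in RT112 replicate 1, against 73 and 74 in UM-UC-3. At 43 to 44 Mb of chromosome 20 there were 10 regions among 24 protein-coding genes, 7 of them in genes such as YWHAB, TOMM34 and PABPC1L. The bin at 39 to 40 Mb of chromosome 5 held 9, of which 4 were in C9, DAB2 and FYB1. That at 231 to 232 Mb of chromosome 1 held 9, 8 of them in genes including DISC1 and TRIM67.

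The other fullest bins had 8 or 9 regions. On chromosome 3, 137 to 138 Mb held 9, and on chromosome 14, 70 to 71 Mb held 9 with 4 in SMOC1, SRSF5 and SUSD6. On chromosome 5, 9 to 10 Mb held 8, with 3 in SEMA5A, an axon guidance gene. A bin without any protein-coding gene, at 30 to 31 Mb of chromosome 5, also held 8, with scores of 11.3 to 21.9 in replicate 1.

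Tight runs of regions were few. With gaps of at most 50 kb, 55 runs of 3 or more held 181 regions, 11 runs had 4 or more and the longest had 5. The 5 runs of 5 regions spanned 90.9 to 132 kb. One lay in AK5, one in ENSG00000284686 and PLPP3, and the others outside protein-coding genes, nearest to WSCD2, VCAM1 and MARCHF11. The tightest run of 4 spanned 22.7 kb on chromosome 5, nearest to CDH6.

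In base composition the regions were narrower in range than the DNA around them. In the central 200 bp the median GC content was 42% (quartiles 36.5 and 47.5%). It was 40.5 and 40% in windows 2 kb to the left and right and 40% over 571731 windows spread along the reference. The weaker peaks had 40%, the shared strong peaks 43% and the strong RT112-only peaks 44%. Regions above 60% GC were rare, with 13 of 5554 (0.234%) against 1.39 and 1.48% of the neighbouring windows and 2.88% of the reference. Regions under 35% were fewer too, with 17.4% against 25.6 and 26.1%, and 28.1% of the reference. The weaker peaks also lacked GC-rich centres (0.253% above 60%) but not AT-rich ones (25.5% under 35%). Centres under 35% were fewer still in the shared strong peaks (11.96%) and the strong RT112-only peaks (9.703%). Centres above 60% were rare there too, in 1 of 811 and 10 of 3030. Neither shortage was thus particular to the regions.

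CpG was sparse, as in most of the genome. The median observed over expected CpG was 0.154 in the regions and 0.163 and 0.164 beside them. Promoter regions had a median GC content of 44%, distal intergenic ones 41%, and the 6 regions in 5′ UTRs 50%. Repeated DNA, measured as a median of at least 10 copies in the reference for the 16-base words of a window, made up 27.5% of the regions, against 27.7 and 27.3% of the neighbouring windows. At 100 copies or more it was 11.97%, against 12.8 and 13.1%.

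Purine-rich and pyrimidine-rich strands were more frequent in the regions. A purine share more than 20 percentage points from an even split was found in 174 regions (3.13%). It was found in 0.846 and 0.828% of the neighbouring windows and in 0.775% of the reference. The replicate 2 intervals gave 177 (3.19%). The share was 0.901% in the weaker peaks, 7.03% in the shared strong peaks and 5.54% in the strong RT112-only peaks. Within the regions it was 2.76% at lower scores of 10 to 15 and 9.20% (16 of 174) at 30 or more. The score chose the regions, so this rise is a description, and whether such tracts affect the score was not tested. The LINC01234 region printed above is the extreme by score; 3 of the 10 best-ranked regions passed this limit, at LINC01234 (38.5 points), STARD13 (36.5) and near ADAMTS5 (30.5).

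Short repeats were counted too. Runs of at least 6 GA units, on either strand, were in 50 regions (0.900%) against 0.594 and 0.450% beside them and 0.434% of the reference. Runs of at least 3 GGAA units were in 16 (0.288%), against 14 windows (0.252%) on either side and 0.180% of the reference. Runs of at least 12 A or T were in 2.48%, against 4.54 and 4.03% beside them. Runs of at least 6 AT units were in 0 of 5554 regions, where 29 and 26 of the neighbouring windows had one. Other sets of peaks showed such shares too. AT runs were in 0.0591% of the weaker and 0.0660% of the strong RT112-only peaks, and runs of A or T in 2.59 and 0.957%. GA runs were in 0.422% of the weaker, 1.11% of the shared strong and 1.22% of the strong RT112-only peaks. CA runs were as frequent as in the reference, at 1.06 and 1.02%.

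Letters of known transcription factor motifs were counted on both strands. The AP-1 letters TGANTCA were in 6.32% of the regions and 6.23% of the reference windows, the GATA-factor word AGATAA in 14.5 and 14.7%, and the TEAD word GGAATG in 11.9 and 10.5%. The box CCAAT was in 29.8 and 27.6%, the telomere unit TTAGGG in 7.60 and 7.02% and the E-box word CACGTG in 2.02 and 1.79%. Another E-box word, CAGCTG, was in 7.004 and 6.93%. The GC box GGGCGG was rarer in the regions (1.71 against 2.86%), as was the forkhead word TGTTTAC (2.56 against 3.16%). Among all peaks of replicate 1 the GC box was in 1.67%, CCAAT in 29.7% and the forkhead word in 3.20%. The strong RT112-only peaks gave 1.78, 29.6 and 3.14%, and the shared strong peaks 2.22, 30.8 and 2.71%. The shares of the GC box and of CCAAT were thus not particular to the regions. For the forkhead word, the shared strong peaks (22 of 811) were close to the regions. The CTCF core was in 1 region (0.018%, against 0.0701% of the reference), the NF-kappa-B motif in 1.46% against 1.57% and the p53 decamer in 5.82% against 5.17%. The ETS word CCGGAAG was in 0.486% against 0.475%, the CRE word TGACGTCA in 2 regions (0.036%, against 0.0661%) and the SMAD palindrome GTCTAGAC in 5 (0.090%, against 0.106%). A stretch that matches the NF-kappa-B motif can also contain the TEAD word, so the counts can overlap. A match is letters in a window and does not show a bound site.

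Among the 6-base words compared, CTGAAG was the most depleted at peak centres. Of 1572 words found in at least 2% of the neighbouring windows, none was more than 1.5 times as frequent in the regions, and only CTGAAG, whose complement is CTTCAG, was less than 0.5 times as frequent. It was in 311 regions (5.60%), against 12.98 and 13.6% of the windows 2 kb to the left and right and 13.4% of the reference. The next-lowest ratio of these words was 0.602, for CGGGCA. The 18 words that differ from CTGAAG by a single base had ratios of 0.777 to 1.20, CTGCAG 1.14 and CTGAAT 0.975 among them. This word was picked after its values were seen.

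The gap was local and was common to all sets of peaks. Within 50 bp of the centre of the regions the word started 1.25 times per 100 peaks in each 50 bp, against 3.75 at 500 to 1000 bp away, where bins ranged from 3.19 to 4.50. At 150 to 250 bp from the centre it was 4.66. The ratio of centre to distant bins was 0.334 in the regions, 0.304 with replicate 2 intervals, 0.280 in the weaker peaks, 0.480 in the shared strong peaks and 0.427 in the strong RT112-only peaks. By score, the share of regions with the word was 5.84% at lower scores of 10 to 15 and 5.17% at 30 or more. The gap was thus seen in strong RT112-only peaks as well, and its cause was not tested.

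**Figure D5:**
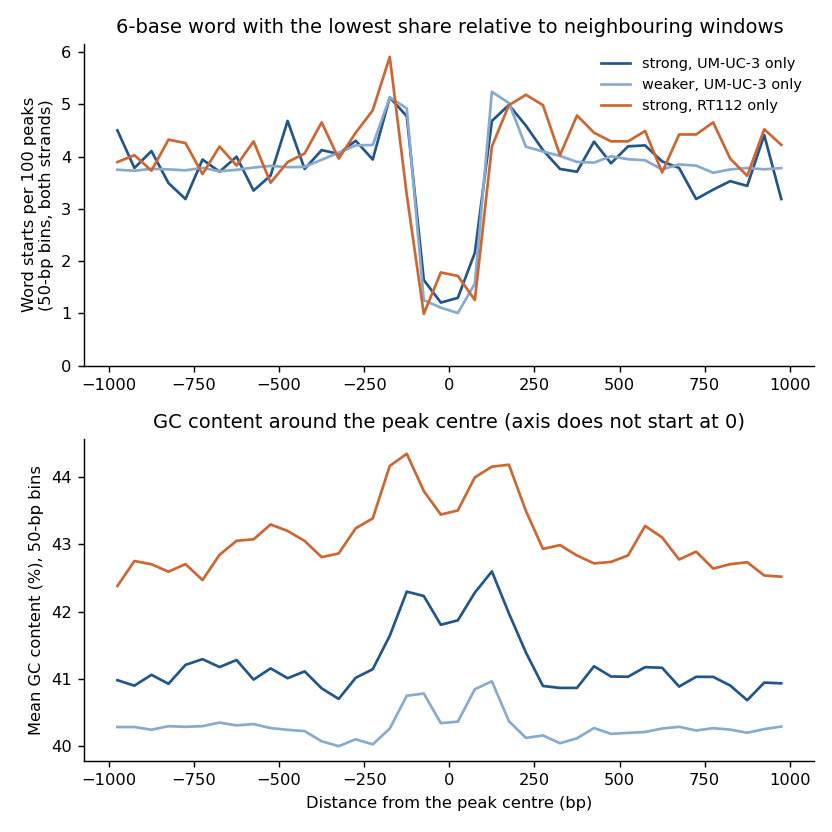
Top, starts of the 6-base word with the lowest share relative to neighbouring windows per 100 peaks in 50-bp bins (vertical axis), by distance from the peak centre in bp (horizontal axis). Bottom, mean GC content in the same bins (axis not from 0): in each of the 3 sets the word falls within about 100 bp of the centre, for the strong UM-UC-3-only peaks from 3.75 to 1.25 per 100 peaks.

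Among the words at the other end were GA-rich ones. The highest ratios were those of GGGTAC (5.01% of the regions, 3.34% beside them), GAGAGA (19.8 and 14.8%), AGAGAG (21.4 and 16.3%) and GTTGGA (9.94 and 7.59%). The replicate 2 intervals gave 4.97, 19.9, 21.5 and 10.1%, and the strong RT112-only peaks gave 4.85, 23.8, 25.3 and 9.74%. These shares, too, are those of words picked for their ratios.

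Longer words showed that some regions share a sequence. Of the 14-base words found in at least 15 regions, 128 were at least 5 times as frequent as beside the regions. They fell into 17 sets by the regions that held them, and 272 regions (4.90%) held at least 1 of them. The neighbouring windows, 42 to the left and 51 to the right, held them less often, as the choice of words requires. The share was 4.84% with replicate 2 intervals, which are at the same places, 2.02% in the weaker peaks, 4.19% in the shared strong peaks and 3.66% in the strong RT112-only peaks. The words were chosen for their frequency in the regions, which raises the share there. The excess over the other sets is therefore no finding.

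The most frequent such word was aaacaaccagatct, in 25 regions on 15 chromosomes against 3 and 1 of the neighbouring windows. The reference holds 4662 copies of it, which gives 5.36 regions per 1000 copies. The windows of the regions made up 0.363 of every 1000 positions of the reference. Such words were picked for their frequency in the regions, which raises these rates. The word acacacttttaaac was in 22 regions, or 5.89 per 1000 copies. Regions with the first word had median scores of 14.6 and 14.6, close to those of all regions.

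Further words had fewer regions per copy, except a GA-rich one. The word aaggattataaatc was in 23 regions (1.55 per 1000 copies), and caggccaacattca and attggtgtacctga were in 21 and 19 (3.26 and 2.83 per 1000). The GA-rich word agagacagagacag was in 16 regions on 9 chromosomes, 5.81 per 1000 copies. An annotation of repeat families was not used here, so no repeat family is named.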

How the data were processed

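ChIP-seq with an antibody against PAI-1 was done by the authors on RT112 and UM-UC-3 cells, with 2 biological replicates and 1 input per line, 6 samples in all. The 4 ChIP libraries had peak lists, whereas the 2 inputs are not analysed here. Per the study's methods and the submitters' processing notes, paired reads were mapped to hg19 with Bowtie 1.1.1, duplicates were removed with Picard and peaks were called with MACS2 2.1.0.20140616. Whether the input served as control is not given in the sources used here. Deposited scores were taken as −log10 values of p or of q; the lowest was 2.00 to 2.01. The lists hold no read counts, so library depth is unknown.

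Identical intervals were counted once with the highest score. Locations came from GENCODE 44 on GRCh37, and sequences from the GRCh37 reference. Composition was measured in 200 bp around each peak centre, in windows 2 kb to either side and in every 25th window of the reference. Copies of 16-base words were counted on both strands. The 10 members with the best mean rank, the 10 best within 1 kb of a coding start, the 10 fullest bins, the 15 genes with most members, the 10 densest of at least 100 kb and the gene lists were named by rule. The members, lists and rules were chosen with earlier results of these data known. Analyses of CTGAAG, of 14-base words, of arms and of score steps were chosen after seeing the data. Scripts in Python 3.11.15 (numpy 2.4.6, pandas 2.3.3, scipy 1.17.1, numba 0.67.0, matplotlib 3.10.9) were tested on simulated data. Some sequences are not reported here.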

Additional observations from a re-analysis of the deposited data

How the results depend on the processing

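The 6 main values were recomputed under other settings, and 40 of 62 values stayed within the limits: 1.5-fold for the number of regions, and a 95% interval (Wilson for shares, order statistics for the median) for the rest. These intervals cover counting error only. A score of at least 15 left 1853 regions and one of at least 20 left 693, and excluding any region with an RT112 peak within 10 kb left 2158. Leaving out a library gave 5677 to 9291 regions: 9291 without UM-UC-3 replicate 1 and 8871 without UM-UC-3 replicate 2, where a single list sets the score. The median GC content, 42.0% over whole peaks, was 42.4, 42.6 and 41.3% under the first 3 alternatives, and 41.7 to 42.0% when a library was left out. The 5% of bins with most regions held 22.6, 31.6 and 21.1% under these 3, where fewer regions fill the bins, 20.02% and 10.9% with smaller and larger bins, and 13.8 to 15.8% without a library. With protein-coding genes alone, distal intergenic DNA held 54.2% and promoters 7.99%; with promoters of 1 kb, 35.65% and 6.55%. The share of promoters was 17.6% for regions without an RT112 peak within 10 kb. The share in or near a protein-coding gene was 47.6% at a score of 20 and 43.8% without flanks. Without a library, promoters held 15.8 to 15.99%, distal intergenic DNA 34.3 to 34.7% and regions near coding genes 45.6 to 45.9%. A reciprocal overlap of 50% and the intervals of replicate 2 moved none of the 6 values beyond the limits. No paired analysis was possible because peak lists gave no test to block by replicate number. The depth behind the scores is unknown, so a region without an RT112 peak was not called in RT112 at the depth of those libraries.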

Other observations

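Few regions lay at the edges of the assembly: 47 (0.846%) were within 100 kb of a run of at least 1000 unknown bases, against 1.11% of all peaks of UM-UC-3 replicate 1 and 2.71% of the shared strong peaks. The share of regions per 100 peaks rose with the GC content of the 1-Mb bin, at 4.54, 4.90, 5.21 and 5.74 in 4 equal groups of bins from low to high GC, although their number per bin was 1.65, 1.97, 2.18 and 1.92. Arms of chromosomes also differed in both lines: 20p had 1.49 regions per Mb and 3.96 strong RT112-only peaks per Mb, the highest value of RT112, and 4q had 1.28 and 0.268. On 8q the values were 2.26 and 2.19. The scores of the regions took 562 distinct values in replicate 1 and 569 in replicate 2, and the most common, 11.3 in replicate 1 and 11.2 in replicate 2, was that of 867 and 785 regions.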
